A study of Homo sapiens with 23 samples.

Results

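Distal chromosome 3q is described here through the long-range contacts, called loops, that the authors listed after HiChIP of the progesterone receptor (PR) in T47D cells. A loop was a member when it lay on chromosome 3 and its first end began in the last 33.1 Mb that loops reached on that chromosome (hg38), so that both ends were on the far part of the long arm. In the library labelled T0, 624 of 7075 listed loops met the rule, and in the library labelled T30, 851 of 9591 did. T47D is an established breast cancer cell line, and per the labels the cells were moved from charcoal-stripped serum without phenol red into medium without serum before any hormone was added. T0 and T30 are 1 library each, with no allele or transgene named for either. The cell line's label was not checked against marker genes, since no expression values were compared here. The T30 title reads PR5020, and R5020 is a synthetic progestin that the treatment text names. The hormone dose and the unit of the time are not stated for these libraries. With 1 library a group, no difference between T0 and T30 has a replicate check. Every interval below is an exact 95% interval that covers counting error only, and loops that share an end are not independent of each other.

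HiChIP ligates stretches of DNA that are neighbours in the folded chromosome and then enriches the joined pieces that carry one chosen protein, so a listed loop is a pair of places that met more often than their distance predicts and that were recovered with that protein. PR is a nuclear receptor for progesterone that binds DNA at hormone response elements, mostly in enhancers far from genes. Distal 3q carries many genes studied in cancer, among them the regulators MECOM, SOX2, TP63 and BCL6 and the kinase gene PIK3CA, and the segment is often present in extra copies in squamous tumours. In the files each loop is a pair of 5 kb bins with a number of contacts, the read pairs that joined the bins. The files give no coverage, so loops per Mb were not scaled to the number of DNA copies.

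The promoters below belong to genes whose start site lay in a hub bin, that is, a bin joined to 5 or more different partner bins in a library. They are shown because they place the loops at letters of the genome, with 250 bases that end just before the RefSeq start site, on the strand of the gene and in GRCh38.p14 coordinates. FAM43A (chr3:194685633-194685882, plus strand) had 12 partner bins in T0 and 15 in T30. HES1 (chr3:194135898-194136147, plus strand) had 6 and 5, and BCL6 (chr3:187745469-187745718, minus strand) had 5 and 5.

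FAM43A: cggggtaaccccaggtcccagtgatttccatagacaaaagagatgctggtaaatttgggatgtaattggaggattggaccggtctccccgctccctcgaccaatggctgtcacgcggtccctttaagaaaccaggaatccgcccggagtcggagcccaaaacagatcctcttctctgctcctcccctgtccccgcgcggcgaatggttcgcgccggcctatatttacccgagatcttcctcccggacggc

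HES1: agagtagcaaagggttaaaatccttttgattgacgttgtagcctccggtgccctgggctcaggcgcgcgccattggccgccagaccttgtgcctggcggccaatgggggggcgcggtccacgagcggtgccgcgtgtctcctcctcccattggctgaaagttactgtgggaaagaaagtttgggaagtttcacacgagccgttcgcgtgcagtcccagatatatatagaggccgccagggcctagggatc

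BCL6: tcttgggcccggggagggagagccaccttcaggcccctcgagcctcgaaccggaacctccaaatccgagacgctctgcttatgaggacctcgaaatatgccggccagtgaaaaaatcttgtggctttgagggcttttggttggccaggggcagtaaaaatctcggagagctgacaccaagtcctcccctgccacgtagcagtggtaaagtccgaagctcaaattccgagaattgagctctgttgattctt

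AP2M1 (chr3:184174605-184174854, plus strand) and CAMK2N2 (chr3:184261554-184261803, minus strand) were hubs in T30 alone, with 0 and 2 partner bins in T0 and 9 and 12 in T30. SMCO1 (chr3:196515347-196515596, minus strand) was a hub in T0 alone, with 8 partner bins and 0 in T30. Capitals mark a match to AGATAA, the GATA motif.

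AP2M1: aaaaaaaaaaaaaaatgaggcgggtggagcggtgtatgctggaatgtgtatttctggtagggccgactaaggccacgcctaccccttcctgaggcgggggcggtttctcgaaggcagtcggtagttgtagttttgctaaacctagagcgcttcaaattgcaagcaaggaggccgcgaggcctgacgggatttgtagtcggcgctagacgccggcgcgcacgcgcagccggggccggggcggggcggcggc

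CAMK2N2: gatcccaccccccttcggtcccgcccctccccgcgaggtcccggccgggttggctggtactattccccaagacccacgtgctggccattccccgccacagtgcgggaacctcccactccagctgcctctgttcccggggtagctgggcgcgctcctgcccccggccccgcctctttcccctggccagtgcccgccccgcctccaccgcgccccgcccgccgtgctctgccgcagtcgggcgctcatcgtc

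SMCO1: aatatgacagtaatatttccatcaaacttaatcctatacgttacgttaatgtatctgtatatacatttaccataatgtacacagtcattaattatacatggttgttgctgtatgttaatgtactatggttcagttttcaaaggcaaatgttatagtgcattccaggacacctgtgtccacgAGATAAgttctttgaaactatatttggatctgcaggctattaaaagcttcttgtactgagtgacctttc

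These promoters differed in base composition. The SMCO1 promoter held 33.2% G and C and 3 CG pairs, whereas CAMK2N2 held 74.4% and 25 CG pairs, and AP2M1 held 60.4% and 25. The median over all 35116 RefSeq promoters was 58.0% and 11 CG pairs, and over the 27 promoters in hub bins of distal 3q it was 58.4% and 16. Some of the 27 are identical or overlapping windows, as at ALG3 and EEF1AKMT4, so they are not independent of each other. The promoters were searched on both strands for motifs of PR and of factors known from breast epithelium. The core of the palindromic hormone response element, ACANNNTGT, was in 0 of the 27 hub promoters and in 4.61% of all promoters. Over the 179 promoters in all loop bins of distal 3q it was in 12, or 6.70%. The full element is the core preceded by G and any base and followed by any base and C. It was in 0 of 27, in 1 of the 179 and in 0.327% of all promoters. The forkhead motif TGTTTAC was in 0 of 27 and in 2.98% of all promoters, and the AP-1 motif TGANTCA in 0 of 27 and in 6.57%. AGATAA was in 2 of 27, BCL6-AS1 at 233 bases before the start site and SMCO1 at 69, and in 9.17% of all promoters. A single arm of the hormone element, TGTTCT, added to the search after the other results were seen, was in 1 of 27, LSG1 at 113 bases before the start, and in 12.4% of all promoters. In the 179 the shares were 3.35% for TGTTTAC, 3.91% for TGANTCA, 4.47% for AGATAA and 11.2% for TGTTCT. A window without these letters says nothing about binding elsewhere in the same 5 kb bin.

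Loops were dense on distal 3q in both libraries. T0 listed 18.9 loops per Mb there against 2.24 in the rest of the genome, a ratio of 8.43 (7.75 to 9.16). T30 listed 25.7 against 3.03, a ratio of 8.49 (7.91 to 9.11). The segment is 1.13% of the length that loops covered, and it held 8.82% of the T0 loops (8.17 to 9.50) and 8.88% of the T30 loops (8.31 to 9.46). Its contacts summed to 12315 in T0 and 13278 in T30, which were 9.66% and 9.80% of all contacts. The rest of chromosome 3 was sparse, and the density ratio against it was 12.45 (10.7 to 14.5) in T0 and 12.8 (11.2 to 14.5) in T30. Against chromosome 17, another loop-rich chromosome, the ratio was 2.21 (1.98 to 2.47) in T0 and 2.31 (2.10 to 2.53) in T30. Protein-coding genes were not denser there, at 5.62 per Mb against 6.88 in the rest of the genome. At the edge of the rule, the lowest member in T0 began at 166000001 with 8 contacts, and the nearest T0 loop below the boundary began at 164450001 with 9 contacts. In T30 the lowest member began at 167505001 with 17 contacts, and the nearest loop below began at 161320001 with 13. A further 2 loops in T0 and 0 in T30 crossed the boundary and were not members.

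The number of loops grew on distal 3q as it did elsewhere. T30 listed 1.36 loops for each T0 loop on distal 3q (1.23 to 1.51) and 1.35 in the rest of the genome (1.31 to 1.40), and the ratio of these ratios was 1.01 (0.903 to 1.12). The T0 file lists loops with a span of 10 kb, whereas every T30 loop spans 20 kb or more. With loops under 20 kb left out, the figures were 1.39 and 1.48, and their ratio was 0.937 (0.839 to 1.05).

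Inside the segment most loops lay in 2 stretches. Of the 34 windows of 1 Mb, 32 held T0 loops and 30 held T30 loops. The window that begins at 184 Mb, which holds EIF4G1, PSMD2, THPO and EPHB3, was the densest in both, with 65 loops in T0 and 128 in T30. The other leading windows in T0 began at 193 Mb with 55, 194 Mb with 50, and 183 and 196 Mb with 47 each. In T30 they began at 194 Mb with 95, 183 Mb with 84, 196 Mb with 67 and 197 Mb with 51. From 183 to 188 Mb there were 194 loops in T0 and 320 in T30, or 31.1% and 37.6% of the members. From 192 to 198 Mb there were 217 and 321, or 34.8% and 37.7%. Outside these stretches, the windows at 170, 179 and 189 Mb held 33, 28 and 28 loops in T0 and 14, 48 and 6 in T30. Among the 21 windows of the whole genome with most loops, ties included, 10 were on distal 3q in T0 and 7 in T30. The first window had no loop in either library. The last one, from 198 Mb, had none in T0, and those from 166, 174 and 175 Mb had none in T30.

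Windows did not all move with the whole list. T30 listed more loops than T0 in 17 windows, fewer in 14 and the same number in 3. The list as a whole grew 1.36 times, and the unadjusted interval lay above that ratio in 3 of 32 windows. These began at 184 Mb (65 to 128 loops, ratio 1.97, 1.45 to 2.70), 195 Mb (14 to 41, 2.93, 1.56 to 5.82) and 197 Mb (22 to 51, 2.32, 1.38 to 4.01). It lay below in 5 windows. Of these, the window at 189 Mb, which holds TP63 and the lower end of P3H2, fell from 28 loops to 6 (ratio 0.214, 0.0725 to 0.527), and the window at 170 Mb, which holds PRKCI, SKIL and RPL22L1, from 33 to 14 (0.424, 0.210 to 0.815). The window at 191 Mb went from 13 to 2 (0.154, 0.0169 to 0.680), that at 192 Mb from 29 to 19 (0.655, 0.347 to 1.21) and that at 193 Mb from 55 to 48 (0.873, 0.580 to 1.31). From 188 to 192 Mb together, T0 listed 54 loops and T30 25. Windows in the rest of the genome were not compared in this way, so the 3 and 5 of 32 have no background.

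**Figure D1:**
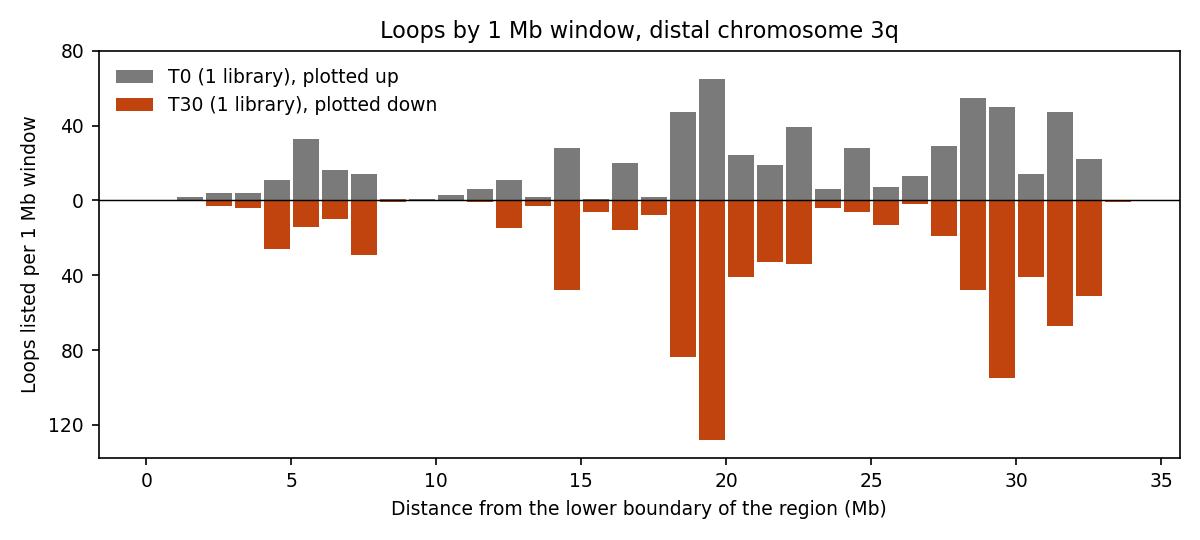
Loops listed in each 1 Mb window of distal 3q, against the distance from the lower boundary in Mb. Grey bars (T0, 1 library) run up and orange bars (T30, 1 library) run down; the longest pair is the window with 65 and 128 loops, and the sparse stretch near 10 Mb holds few loops in either library.

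Loops on distal 3q were long in T0. The median span was 317.5 kb in T0 (295 to 335) against 180 kb in the rest of the genome (175 to 185), and 95 kb in T30 (85 to 105) against 80 kb (75 to 80). The rest of chromosome 3 had medians of 230 kb (195 to 255) in T0 and 100 kb (85 to 110) in T30, so the T30 length was not particular to the segment. Loops of 200 kb or more were 473 of the 624 T0 members, or 75.8%, against 45.7% elsewhere. They were 235 of the 851 T30 members, or 27.6%, against 17.9%. T30 listed 252 loops of 20 to 50 kb, a class with 13 loops in T0, and 179 of 50 to 100 kb against 38. T0 listed 315 loops of 200 to 500 kb and 133 of 500 to 1000 kb, against 191 and 39 in T30. The shift to short loops was also seen outside distal 3q, where the class of 20 to 50 kb went from 347 loops to 2768.

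At a given span, the listed T0 loops of distal 3q had more contacts than those elsewhere. The median over all members was 15 contacts in T0 and 14 in the rest of the genome, but the members were longer. For loops of 100 to 200 kb the T0 median was 23.5 on distal 3q and 15 elsewhere, and the lowest listed loop had 15 contacts on distal 3q and 8 elsewhere. For T0 loops of 20 to 50 kb the medians were 44 and 25, and the lowest values 29 and 12. In T30 the medians for 20 to 50 kb were 20 and 16, and for 100 to 200 kb 12 and 11. On chromosome 17 the T30 medians were close to those of distal 3q, at 19 for 20 to 50 kb and 12 for 100 to 200 kb, and for 500 to 1000 kb higher, at 11 against 10.

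**Figure D2:**
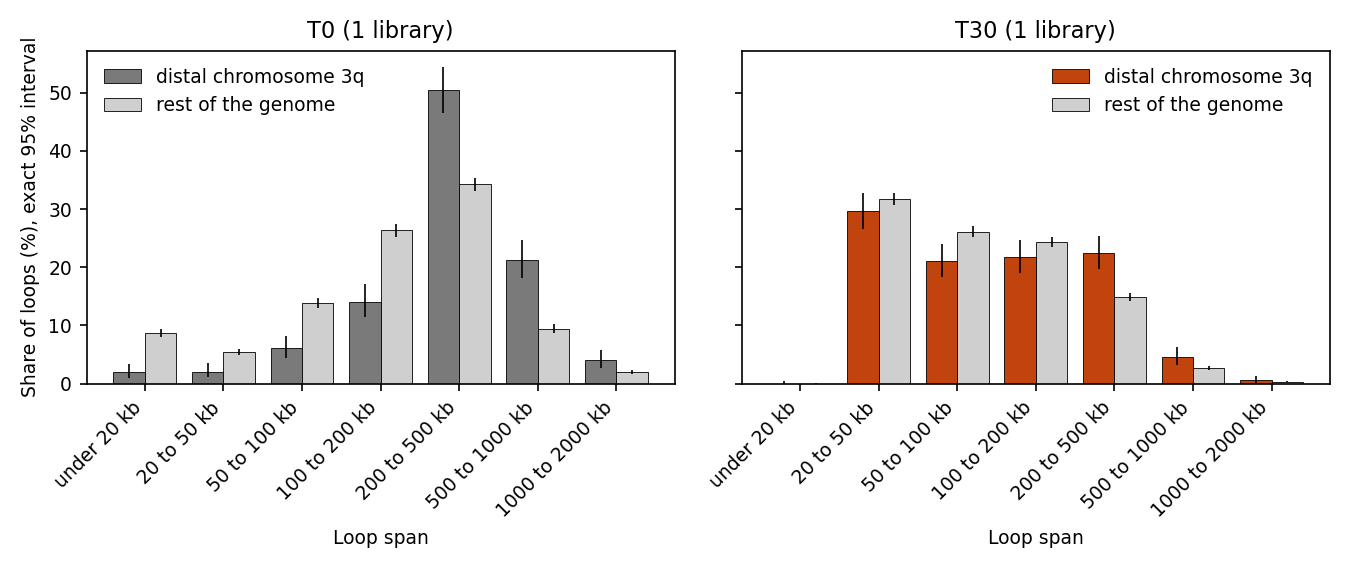
Share of loops in each class of span (bars, %, with exact 95% intervals) on distal 3q and in the rest of the genome, for T0 on the left and T30 on the right (1 library each). In T0 the class of 200 to 500 kb holds 50.5% of the loops of distal 3q and 34.2% of the others; in T30 the class of 20 to 50 kb leads in both.

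The members with most contacts were the shortest ones. In T0 the 10 leading loops all spanned 10 kb, from 127 contacts inside the non-coding gene LINC00885 to 88 inside PAK2, a serine/threonine kinase. The second joined PSMD2, a subunit of the proteasome, to EIF4G1, the scaffold of the translation initiation complex, with 118. Others lay inside SENP2, a protease for SUMO, with 108, inside BDH1, an enzyme of ketone bodies, with 107, and at EIF2B5, a translation initiation factor subunit, with 102. The rest lay in LOC107986163 with 112, from RUBCN to FYTTD1 with 102, in TNK2, a cytoplasmic tyrosine kinase, with 99, and at VWA5B2 with 96. None of the 10 was listed in T30, whose list begins at 20 kb. In T30 the leading loops had 64 and 48 contacts inside ABCC5, an efflux transporter, and 47 inside MCCC1, an enzyme of leucine breakdown. A loop from EIF4G1 to FAM131A had 45, and one at EPHB3, an ephrin receptor, had 43. Outside protein-coding genes, 169870001 to 169945001 had 39, 194270001 to 194290001 had 38 and 195825001 to 195845001 had 37. Of the 10 leading T30 loops 2 had the same bins in T0: one at TNK2 with 55 contacts in T0 and 40 in T30, and one from GNB4, a G protein beta subunit, with 44 and 38.

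The longest members need care. The longest in both libraries joined SDHAP2 to SDHAP4 over 1970 kb, with 25 contacts in T0 and 9 in T30, and the next joined SDHAP1 to SDHAP4, over 1635 kb with 15 contacts in T0 and 1640 kb with 12 in T30. These are near-identical pseudogene copies of SDHA, between which reads can be assigned to the wrong copy, so these 4 loops are uncertain. Other very long loops ran from BCL6, a transcriptional repressor of the germinal centre, into TPRG1 over 1495 kb (7 contacts) and 1410 kb (9) in T0, and from BCL6 over 1215 kb (10) and 1185 kb (12) in T30. A T0 loop of 1430 kb (8) joined the neighbouring gene RTP2 to TPRG1. The gene SOX2, a stem cell transcription factor, lay at the end of a T30 loop of 905 kb with 10 contacts.

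Loops of distal 3q were listed again in the other library more often than loops elsewhere. A loop counted as listed again when the ranges of both of its ends overlapped those of a loop in the other file. Of the 624 T0 members 232, or 37.2% (33.4 to 41.1), were listed again in T30, against 20.7% (19.8 to 21.8) in the rest of the genome and 22.2% over all T0 loops. Of the 851 T30 members 235, or 27.6% (24.6 to 30.8), were listed again in T0, against 15.3% (14.6 to 16.1) and 16.4% over all T30 loops. The gap was also present at a given span: for T0 loops of 100 to 200 kb it was 64.8% (53.9 to 74.7) against 26.9% (24.8 to 29.1), and for T30 loops of 200 to 500 kb 50.3% (43.0 to 57.6) against 26.2% (23.8 to 28.6). For T30 loops of 20 to 50 kb the shares were close, 5.16% (2.78 to 8.66) and 5.42% (4.61 to 6.33). Loops were denser on distal 3q, so an overlap also had more loops to fall on there, and the part of density in these shares was not tested.

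Pairing loops one to one gave 197 matched loops on distal 3q, of 1389 in the genome, and 76 of them had identical bins. T30 contacts divided by T0 contacts had a median of 0.600 on distal 3q (0.571 to 0.643) and 0.667 in the rest (0.652 to 0.692). Each matched loop was tested against the median ratio of all matched loops with a two-sided exact binomial test, adjusted by Benjamini-Hochberg over the 1389, which compares these libraries and not the conditions. On distal 3q 0 matched loops were called higher, with 1.58% called over the genome, and 1 was called lower, with 0.072% called. At an unadjusted p under 0.05, 2 were higher and 12 lower on distal 3q, and 75 and 26 over the genome. One of the 2 higher loops (12 and 18 contacts) lay between SDHAP2 and SDHAP1, which are also near-identical copies. The count called lower rests on the scaling: it was 32 with the ratio of summed contacts and 18 with no scaling. With either, 0 were called higher. The matching counts over the genome were not computed for these scalings, so neither count can be read as particular to the segment. The called loop joined the non-coding gene LINC01840 to LOC107986163 over 170 kb in T0, with 46 contacts in T0 and 10 in T30 (log2 −1.62 relative to the median ratio, −2.77 to −0.61, exact binomial test, adjusted p = 0.0359). Its bins were shifted by 5 kb at each end between the libraries, and with identical bins required it was no longer a pair and 0 were called.

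Among the 76 with identical bins, none was called, and the highest ratios were those of loops at BCL6 and the claudin genes. BCL6 to LPP, a focal adhesion protein, had 9 contacts in T0 and 11 in T30, and BCL6 to the bin at 188925001 had 11 and 12. P3H2, a collagen prolyl hydroxylase, to the bin of CLDN1 and CLDN16, which encode tight junction proteins, had 12 and 12, and FAM43A to 195035001 had 12 and 12. The loop from 190220001 to CLDN1 and CLDN16 had 31 and 29. The lowest ratios were at MB21D2 (54 and 17), at 196620001 (35 and 12), from DLG1, a scaffold of cell polarity, to BDH1 (29 and 10), at ZDHHC19 (40 and 14) and at PAK2 (51 and 18).

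**Figure D3:**
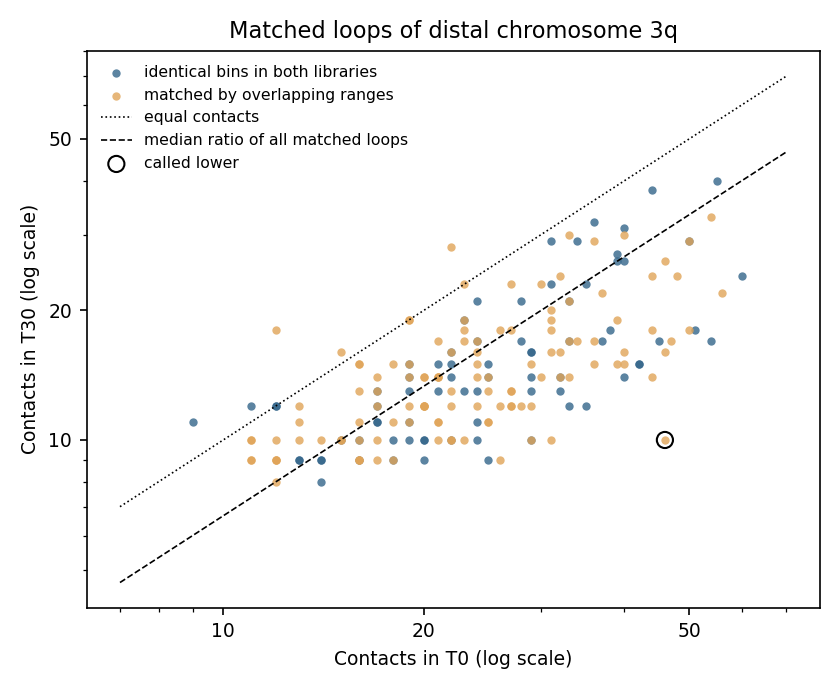
Contacts in T30 against contacts in T0 (both on log scales) for the 197 matched loops of distal 3q. Blue points have identical bins and orange points overlapping ranges, the dotted line marks equal contacts, the dashed line the median ratio of 0.667 of all 1389 matched loops, and the circle the one called loop (46 and 10 contacts).

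Most protein-coding genes of distal 3q touched a loop. A T0 loop ended at 122 of 186 genes, or 65.6%, against 19.7% of all genes, and a T30 loop at 140, or 75.3%, against 23.4%. Both libraries had an end at 107 genes (11.4% of all genes), and 31 genes had none in either. Partner bins, the different bins to which a gene was joined, were counted with both ends where a loop lay within the gene. T30 gave more partner bins at 95 genes of the 186 (with 16.4% over all genes) and fewer at 45 (with 11.5%). Over all genes, 13695 of 20037 had no loop in either library, and these genes count in the 16.4% and 11.5% as unchanged. The number of partner bins summed over genes went from 556 to 777, and in the rest of the genome from 7519 to 10518, a similar rise. Where a RefSeq start site was matched, it lay in a loop bin for 64 of 167 genes in T0 and 79 in T30, or 38.3% and 47.3%, against 9.58% and 9.93% of all genes, and for 46 in both. The higher share of genes touched goes with the higher number of loops per Mb, and genes that overlap share loops. Of 229 long non-coding RNA genes 82 had an end in T0, 94 in T30 and 61 in both, where over all such genes of the genome 8.93%, 11.4% and 4.75% did.

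The genes with most partners were spread along the segment. The uncharacterised gene LOC124909474, which overlaps FAM43A, a protein of little known function, had 25 partner bins in T0 and 21 in T30, and FAM43A had 12 and 15. The readthrough gene EEF1AKMT4-ECE2, which spans CAMK2N2 and ECE2, had 16 and 25, and ABCC5 had 11 and 21. XXYLT1, a xylosyltransferase of the Notch receptor, had 11 and 17. MCF2L2, a guanine nucleotide exchange factor, had 10 and 15, and ATP13A4, a cation transporting ATPase, had 13 and 14. In T0 the leading genes also included BCL6 (16, then 11), FGF12, an intracellular fibroblast growth factor homologue (16, then 12), TPRG1 (16, then 4), P3H2 (12, then 4) and BDH1 (12, then 9).

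The largest gains in partners were at GNB4 (1 to 15), AP2M1, the mu subunit of the clathrin adaptor (0 to 13), MCCC1 (1 to 13) and DVL3, a Dishevelled protein of Wnt signalling (1 to 12). Next came ABCC5, CAMK2N2, an inhibitor of CaM kinase II (2 to 12), ST6GAL1, a sialyltransferase (4 to 14), and FNDC3B (5 to 15), with 10 each. At FNDC3B the loops went only from 7 to 9, and both ends of a loop within a gene counted as partners. The largest losses were at TPRG1 (16 to 4), P3H2 (12 to 4), SMCO1 (10 to 4) and then, with 5 each, BCL6, MECOM (8 to 3) and ADIPOQ, the gene of adiponectin (8 to 3). These changes are counts of listed bins in 1 library each. With 10 kb added to each side of the gene, the gain was 9 at DVL3 (8 partners in T0 and 17 in T30) and 9 at CAMK2N2 (11 and 20). At MCCC1 it was 7 (6 and 13). So T0 already listed partners beside DVL3, CAMK2N2 and MCCC1, whereas AP2M1 had 0 and 13 and GNB4 1 and 16. GNB4 was not bare in T0: 4 loops with 116 contacts joined it to 1 partner bin. In T30 it had 20 loops with 331 contacts.

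**Figure D4:**
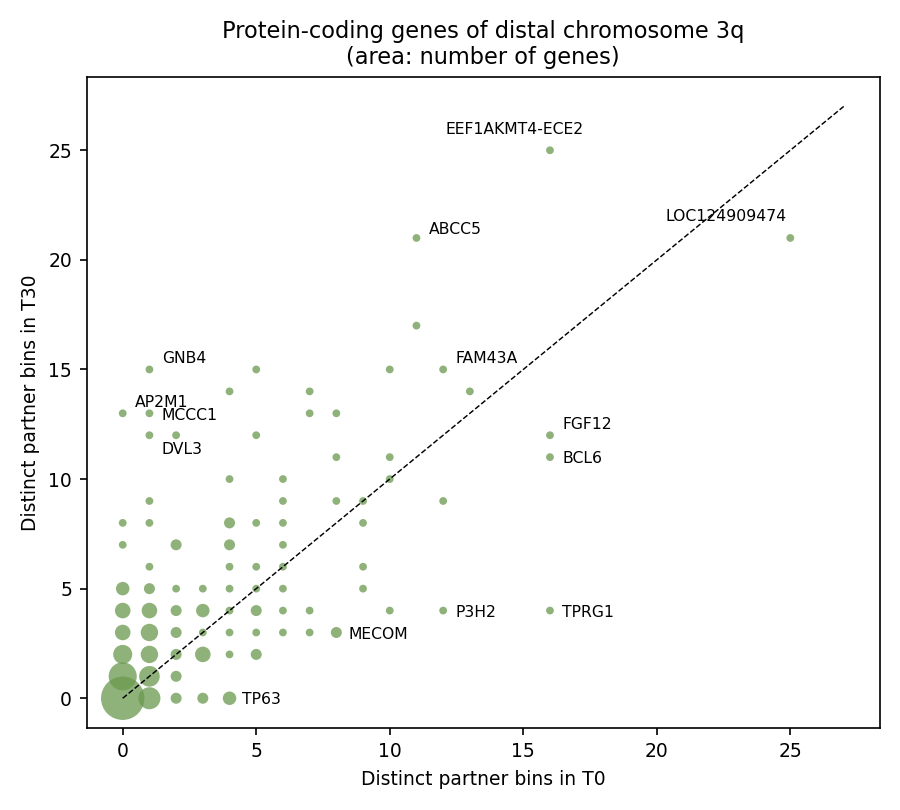
Partner bins in T30 against partner bins in T0 for the 186 protein-coding genes of distal 3q; the area of a point is the number of genes at that value and the dashed line marks equal numbers. Genes far above the line include GNB4, AP2M1, MCCC1, DVL3 and ABCC5, and those far below TPRG1, P3H2 and MECOM.

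Of 11 transcription and chromatin regulators 5 had more partners in T30 and 6 fewer, with 53 partners summed in T0 and 48 in T30. The median change was −1, beside 1 over all 186 genes, and the difference was not tested. Of the 186, 95 had more partners and 45 fewer, which is the background for this list and those below. No list was tested against it. BCL6 led with 17 loops and 200 contacts in T0 and 12 loops and 154 contacts in T30. MECOM, a zinc finger regulator of blood stem cells, had 7 loops and then 2, ZMAT3, a p53 target that binds RNA, 7 and 3, and SKIL, a repressor of SMAD signalling, 7 and 0. TP63, the p53 homologue of basal epithelium, had 6 and 0. In the other direction, YEATS2, a reader of acylated histones, had 8 and 14, ACTL6A, a subunit of the BAF chromatin remodeller, 0 and 4, and SOX2 0 and 3. With 10 kb on each side SOX2 had 11 partners in T0 and 3 in T30, so its order turned. HES1, a Notch target that represses transcription, had 6 loops and then 5, all at its start site, and with 10 kb on each side its order turned too, with 8 partners and then 15. TBL1XR1, a corepressor subunit, had 4 loops and 4, and ETV5, an ETS factor, 1 and 2.

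Signalling genes gained partners in 12 of 16 cases and lost them in 3, beside 95 and 45 of all 186 genes. They had 54 partners summed in T0 and 89 in T30, with a median change of 2. EPHB3 went from 6 loops to 16, DGKG, a diacylglycerol kinase, from 10 to 15, DVL3 from 1 to 14 and MAP3K13 from 1 to 6. PIK3CA, the catalytic subunit of PI3-kinase alpha, had 1 loop and then 4, TNK2 2 and 5, PAK2 3 and 6, and CHRD, an antagonist of bone morphogenetic proteins, 1 and 4. PLD1, a phospholipase, had 4 and 4, IL1RAP, an interleukin-1 coreceptor, 1 and 2, TNFSF10, the death ligand TRAIL, 1 and 2, and ECT2, an exchange factor of cytokinesis, 0 and 1. The 3 that lost partners were FGF12 (25 loops, then 11), the kinase TNIK (9, then 4) and PRKCI, an atypical protein kinase C (1, then 0). GHSR, the ghrelin receptor, had none in either library.

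Transport genes had 44 partners in T0 and 66 in T30, more at 7 of 12 and fewer at 3, with a median change of 1. ABCC5 went from 9 loops and 202 contacts to 25 and 475. TFRC, the transferrin receptor, had 9 loops in T0 and 12 in T30, of which 1 and 6 ended at its start site. ATP13A3, a polyamine transporter, had 7 and 10, ATP11B, a phospholipid flippase, 2 and 5, the chloride channel gene CLCN2 2 and 4, and the potassium channel subunit gene KCNMB3 0 and 1. SLC7A14 had 6 and 2, SLC51A, a subunit of a bile acid and steroid transporter, 5 and 2, and SLC2A2, a glucose transporter, 1 and 0. KCNMB2 and ATP13A5 had none.

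Adhesion and matrix genes had an end at 9 of 13 in T0 and at all 13 of the list in T30, beside 65.6% and 75.3% of all 186 genes. They had 43 and 54 partners, with a median change of 1. DLG1 had 17 loops and then 20, and NCEH1, a lipid hydrolase placed in this list, 7 and 10. The mucin genes MUC4 and MUC20 had 0 loops in T0 and 7 and 3 in T30. P3H2 had 14 and 6, CLDN16 7 and 5, LPP 7 and 7, CLDN1 2 and 3, and CLDN11 2 and 1. NLGN1 and MELTF had 1 loop in each library, and TM4SF19 and LRRC15 had 0 and 1.

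Translation and RNA genes had 18 partners in T0 and 38 in T30, more at 6 of 12 and fewer at 4, with a median change of 0.5. The largest gains in partners were at FNDC3B, a fibronectin domain protein placed in this list (5 to 15), EIF4G1 (1 to 9) and IGF2BP2, which binds messenger RNA (2 to 7). Loops changed less at FNDC3B (7 to 9) and IGF2BP2 (3 to 4) than at EIF4G1 (1 to 8). RPL22L1, a ribosomal protein gene, had 4 loops and then 0, NCBP2, of the cap-binding complex, 2 and 0, RPL39L 1 and 0, and EIF4A2 2 and 1. FXR1, an RNA-binding protein, had 0 and 1, POLR2H, an RNA polymerase subunit, 0 and 2, and the splicing factor gene TRA2B 1 and 2, while EIF5A2 and RPL35A had none.

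Genes of protein turnover had 19 partners and then 25, more at 5 of 10 and fewer at 3, with a median change of 0.5. The deubiquitinase gene USP13 had 2 loops and then 5, SENP2 1 and 4, and PARL, a mitochondrial rhomboid protease, 5 and 6. RNF168, a ubiquitin ligase of the DNA damage response, had 6 and 2, PSMD2 3 and 2, FBXO45 1 and 0, UBXN7 1 and 1, and KLHL24 and SENP5 0 and 1. DCUN1D1 had none.

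Metabolic genes had 51 partners and then 82, more at 7 of 13 and fewer at 3, with a median change of 1. The start sites of 3 of the 10 with a matched site lay in a loop bin in T0 and 9 in T30. Over the 167 such genes of distal 3q the shares were 38.3% and 47.3%. MCCC1 went from 1 loop to 12, ST6GAL1 from 3 to 13, LIPH, a lipase, from 0 to 6, and B3GNT5, a glycolipid glycosyltransferase, from 0 to 2. XXYLT1 had 21 and 22, BDH1 10 and 9, PCYT1A, of phosphatidylcholine synthesis, 12 and 9, and OPA1, of mitochondrial fusion, 6 and 3. ADIPOQ had 8 and 3, EHHADH, a peroxisomal enzyme, 3 and 1, APOD, an apolipoprotein, 1 and 1, and MRPL47 0 and 1, while NDUFB5 had none.

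Genes best known from other tissues were also touched. T0 loops ended at 5 of 10 such genes and T30 loops at 8, beside 65.6% and 75.3% of all 186 genes. They had 19 and 28 partners, with a median change of 0.5. THPO, the thrombopoietin gene, had 9 loops and then 8, CRYGS, a lens crystallin, 5 and 3, and AHSG, a liver plasma protein, 3 and 4. CPN2, a liver-made subunit of carboxypeptidase N, had 2 and 3, KNG1, the kininogen gene, 0 and 4, FETUB 0 and 3, GP5, of platelets, 0 and 2, and SST, the somatostatin gene, 1 and 1. HRG and OSTN had none. A loop end at a gene gives a position and says nothing of the gene's expression.

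Hub bins were more frequent on distal 3q than elsewhere. In T0 51 of 671 loop bins (7.60%, 5.71 to 9.87) had 5 or more partners, against 2.07% (1.79 to 2.38) in the rest of the genome. In T30 52 of 971 did (5.36%, 4.03 to 6.96), against 1.97% (1.74 to 2.23). The part of the higher loop density in these shares was not tested, and no other loop-rich region was compared. At least one end lay in a hub for 344 of the T0 members, or 55.1%, and for 312 of the T30 members, or 36.7%. A start site lay in 12 of the 51 T0 hubs and 15 of the 52 T30 hubs, or 23.5% and 28.8%, against 12.8% and 10.5% of all loop bins of distal 3q. Outside protein-coding genes lay 24 and 29 hubs.

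Of the hubs 14 were shared bin for bin. When partners were counted over the bin with 10 kb on each side, 34 of the 51 T0 hubs (66.7%, 52.1 to 79.2) had 5 or more partners in T30, against 26.6% (23.2 to 30.3) of the 620 other T0 loop bins. In the other direction 33 of the 52 T30 hubs (63.5%, 49.0 to 76.4) had as many in T0, against 18.8% (16.3 to 21.5) of the 919 others. The bin itself had no partner in the other library at 10 T0 hubs and 16 T30 hubs.

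The bin of FAM43A (chr3:194685001-194690000) led over both libraries together, with 12 partners and 184 contacts in T0 and 15 partners and 203 contacts in T30, all on its upper side. Its partners lay 250 to 850 kb away in T0 and 30 to 570 kb away in T30. The bin with most partners in T0, chr3:194315001-194320000, lies 19.8 kb from CPN2. It had 15 partners, all on its lower side and up to 665 kb away, and 5 in T30, also all on the lower side. The bin chr3:193780001-193785000, 82.2 kb from OPA1, faced the other way, with 13 of 14 partners on its upper side in T0 and all 8 in T30. Both bins flank HES1. With 10 kb on each side the T0 and T30 counts were 17 and 11 near CPN2 and 24 and 17 near OPA1.

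Other leading T0 hubs had few partners left in T30, though for some the count over the bin with 10 kb on each side fell less or not at all. The bin chr3:170810001-170815000, in the non-coding gene LOC105374211 and 49.9 kb from RPL22L1, went from 14 to 1. The bin chr3:191415001-191420000, 16.3 kb from CCDC50, went from 12 to 1, and chr3:189960001-189965000 in P3H2 from 11 to 2. With 10 kb on each side these had 2, 1 and 3 partners in T30. The bin chr3:170310001-170315000, 4.02 kb from PRKCI, went from 9 to 0, chr3:185980001-185985000 from 9 to 1 and chr3:184370001-184375000 in THPO from 9 to 6. At 8 partners were 3 more, in LINC01839 (6 in T30), FGF12 (3) and ATP13A4 (0). With 10 kb on each side the T0 and T30 counts were 10 and 1 near PRKCI, 12 and 8 at 185980001, 9 and 9 in THPO, 8 and 14 in LINC01839, 10 and 5 in FGF12, and 9 and 5 in ATP13A4.

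Leading T30 hubs that were almost bare in T0 lay in MCCC1 (chr3:183115001-183120000, 0 to 12 partners), at chr3:197395001-197400000, 95.7 kb from DLG1 (0 to 12), beside LRRC31 (chr3:169870001-169875000, 0 to 11) and in GNB4 (chr3:179420001-179425000, 1 to 11). The bin of the CAMK2N2 promoter printed above (chr3:184260001-184265000) went from 2 to 12, and that of the AP2M1 promoter (chr3:184170001-184175000) from 0 to 9. The bin of ALG3 and EEF1AKMT4 went from 4 to 10, and the bin at 183890001, 5.12 kb from PARL, from 3 to 11. The bins at 194270001 and in LINC02036 at 194200001 went from 0 to 10 and from 0 to 9. With 10 kb on each side, the T0 counts were 6 in MCCC1, 0 at 197395001, 2 beside LRRC31, 1 in GNB4, 8 at CAMK2N2, 12 near PARL and 0 at AP2M1.

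Many hubs reached in only one direction. In T0 39 of the 51 hubs, or 76.5% (62.5 to 87.2), had all partners on the same side, and the share elsewhere was 74.9% (68.1 to 80.9). In T30 it was 22 of 52, or 42.3% (28.7 to 56.8), against 23.2% (18.1 to 28.9). Of the one-sided hubs 18 reached up and 21 down in T0, and 14 up and 8 down in T30.

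**Figure D5:**
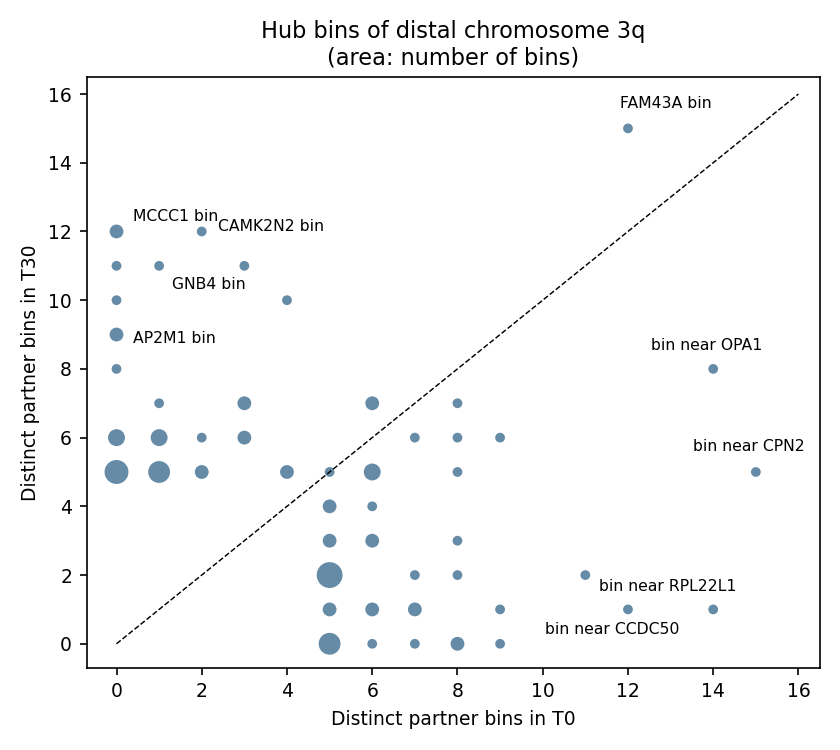
Partner bins in T30 against partner bins in T0 for every bin of distal 3q with 5 or more partners in either library; the area of a point is the number of bins and the dashed line marks equal numbers. The FAM43A bin (12 and 15) stands alone at the upper right, hubs such as MCCC1 (0 and 12) lie along the left edge, and the bins near CPN2 (15 and 5) and RPL22L1 (14 and 1) at the lower right.

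Loops that joined the start sites of a pair of protein-coding genes were rare. There were 9 in T0 (1.44%, 0.662 to 2.72) and 15 in T30 (1.76%, 0.990 to 2.89), against 2.09% and 1.77% elsewhere. The loop from PIK3CA to ZNF639, a zinc finger protein, had 28 contacts in T0 and 17 in T30. The loop from DVL3 to the shared start of ALG3 and EEF1AKMT4 had 25 and 15. The T0 loops also joined HTR3D to EIF2B5 (25 contacts), LRRC31 to SEC62 (22), ZMAT3 to ZNF639 (21) and PSMD2 to EIF4G1 (118). T30 listed AP2M1 to CAMK2N2 (19), EIF2B5 to CAMK2N2 (19), DVL3 to CAMK2N2 (16), ABCC5 to ALG3 (14), AP2M1 to ALG3 (13) and AP2M1 to EIF4G1 (12), so that several neighbouring start sites were joined to each other.

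Loops that share a bin, or whose bins are neighbours, form connected groups. T0 had 51 such groups on distal 3q and T30 had 99. The largest in T0 held 65 bins and 70 loops over 1215 kb, from 183100001 to 184315000, and had a bin in 20 protein-coding genes, from MCCC1 to EIF4G1. The largest in T30 held 150 bins and 182 loops over 1355 kb, from 183455001 to 184810000, and had a bin in 26, from KLHL6 to EPHB3. It held 21.4% of the T30 members, where the largest T0 group held 11.2%. The second group in each library surrounded HES1, with 63 loops between 193650001 and 194605000 in T0 and 77 between 193670001 and 194325000 in T30.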

How the data were processed

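PR HiChIP was analysed in 2 of the 23 samples, T0 and T30. The authors deposited 1 interaction list per library, with pairs of 5 kb bins, the contact count of each pair, a p-value and a q-value; per the labels, interactions were called with FitHiC at a q limit of 0.05 and near contacts were merged. The submitters' processing notes name Bowtie and hg38 (GRCh38). Versions and other settings were not given in the sources used here. A fraction of strong connections that the authors deposited with each loop, and other sample files, were not used. The lists hold only called loops, 127457 contacts in T0 and 135538 in T30, so library depth is unknown.

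Members were loops of chromosome 3 starting at or beyond position 165000000; the members and gene lists were chosen with earlier results of these data known. Genes and promoters came from RefSeq GRCh38.p14, which gave a promoter for 167 of 186 protein-coding genes. The rest of the genome was taken as loops on assembled chromosomes over the length from first to last loop bin; 4 T30 loops outside them were left out. Loops matched when each end's range shared 1 bp or more with its counterpart, and pairs were made one to one by the smallest summed distance. Matched loops were tested with a two-sided exact binomial test against their median ratio (Benjamini-Hochberg at 0.05). Shares have exact Clopper-Pearson intervals and ratios exact conditional ones. The text names the 10 leading loops, bins and genes of each library, the 5 largest changes in each direction, the windows with most and no loops, the extremes among identical-bin pairs and all 97 members of 8 gene lists; genes and pairs outside this rule were chosen after their values were seen. The promoters first meant for the motif search were those of genes at the 5 bins with most partners over both libraries (FAM43A, LOC124909474, THPO and LOC105374211); the search was widened to all hub bins after the data were seen. Among those 4 genes only LOC105374211 held a searched motif, with forkhead, GATA and AP-1 matches. Alternatives changed the q limit, contacts, span, list length, boundary, matching, scaling and gene ends. The binomial test was checked on simulated contacts. Matching was checked only on unshifted copies of listed loops, which had to match, and partner counting on a small made-up example. The other steps had no such check. The software was scipy 1.17.1, networkx 3.6.1, matplotlib 3.10.9, pandas 2.3.3 and numpy 2.4.6 under Python 3.11.15.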

Additional observations from a re-analysis of the deposited data

How the results depend on the processing

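Of 108 recomputed values, 76 stayed within the limits set for a change and 32 moved. These limits do not cover the order of T0 and T30, which turned for some results. At a q under 0.01 the hubs went from 51 and 52 to 26 and 22, and the density ratios from 8.43 and 8.49 to 9.35 and 8.48. With a q under 0.01, distal 3q held 415 loops in T0 and 487 in T30, T30 per T0 loop was 1.17, the T0 density ratio was 9.35, the shares listed again were 43.1% and 35.5%, and there were 26 and 22 hubs. With at least 10 contacts the median spans were 290 and 80 kb. With the T30 list shortened to the T0 length, T30 per T0 loop was 1.01, the T30 share listed again 33.4% and the T30 hubs 34. A boundary at 160 Mb gave density ratios of 7.52 and 7.51, and at 170 Mb 9.58 and 9.60. Against the rest of chromosome 3 the ratios were 12.45 and 12.8. Identical bins gave shares of 12.2% and 8.93% and 0 matched loops called lower, and bins within 10 kb gave 47.9% and 38.4%. Scaling by summed contacts called 32 matched loops of distal 3q lower and no scaling 18, and neither called any of them higher. The median ratio of the matched loops is well below that of summed contacts, and counts over the genome were not computed for these scalings. Bins at a gene end touched 81 genes in T0. The following were chosen after seeing the data: chromosome 17 as reference gave 2.21 and 2.31, start sites alone gave 64 and 79 genes, and clusters in place of loops gave a T0 density ratio of 7.69. No paired analysis was possible because each group has 1 library. The lists hold only called loops, so a loop missing from a list may lie just under its limit.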

Other observations

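Some non-coding genes of distal 3q had many partner bins. SOX2-OT, whose gene surrounds SOX2, had 17 partner bins in T0 and 17 in T30, with 14 and 13 loops. LOC105374211 went from 15 partners to 2 and LOC124906319, inside FGF12, from 10 to 5. LINC01839, between THPO and EPHB3, went from 8 to 22, LINC02036 from 2 to 13, and LOC105374292 from 4 to 13. BCL6-AS1, which overlaps the start of BCL6, had 11 and 10, and LOC105374283, beside the hub bin near OPA1, had 9 and 8. Genes that overlap share bins, so these counts are not independent of those of their neighbours. Of 17 microRNA genes 4 touched a loop in T0 and 5 in T30, each with 1 or 2 loops. The share over all microRNA genes of the genome was not computed, so these counts have no background.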
